A study of Homo sapiens with 4 samples.

Results

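Oxidative phosphorylation genes were picked out of a 2-colour oligonucleotide array by symbol. A probe belonged to the set where its gene symbol began with NDUFA, NDUFB, NDUFC, NDUFS or NDUFV, with SDHA, SDHB, SDHC or SDHD, with UQCR or ATP5, or with COX and a digit, or where it was CYC1 or CYCS. Of 29640 probes that were not controls, 90 carried 1 such symbol, for 84 of the 12222 genes that such probes name on the array, and 12 more matched but carried several symbols and were left out. Complex I had 37 probes for 32 genes, complex II 2 probes, complex III 8, cytochrome c 1, complex IV 11 and complex V 17 probes for 16 genes. The same prefixes caught 14 genes that build or regulate the complexes and are not lasting subunits of the chain (COX10, COX11, COX15, COX16, COX17, COX7A2L, NDUFAF1 to NDUFAF5, SDHAF2, SDHAF3 and ATP5IF1), and these are described apart.

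Oxidative phosphorylation is the last stage of respiration in the inner mitochondrial membrane. Complexes I and II pass electrons from NADH and succinate through ubiquinone to complex III, cytochrome c and complex IV, which reduces oxygen, and complex V makes ATP from the proton gradient that complexes I, III and IV build. Most subunits are encoded in the nucleus, and the transcription factors NRF1, GABP (an ETS family factor, also called NRF-2) and YY1 are known to bind many of their promoters.

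The RNA was from 2 established human colorectal cancer cell lines, DLD-1 and HT-29. Cells grew for 24 h and then for 96 h with 1 µM 5-aza-2'-deoxycytidine, a cytidine analogue that traps DNA methyltransferases and so lowers DNA methylation in dividing cells. Each line was set against its own untreated cells, with both RNAs put together on 2 arrays, with Cy5 on the treated RNA of array 1 and the dyes exchanged on array 2, so there were 4 arrays in all. The labels do not say that the arrays hold separate cultures, so a line was counted as 1 sample, and the SD over its 2 arrays may be technical.

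For the dye-exchanged arrays, the sources used here leave unsettled which of the file's channels is the treated RNA. Values below are log2 of channel 2 over channel 1, listed for DLD-1 arrays 1 and 2 and then HT-29 arrays 1 and 2. The working reading takes channel 2 as treated on all 4 arrays, and was chosen after the strongest probes had been seen. The labels list the treated RNA of the dye-exchanged arrays as the first channel, and in that order the sign of each array 2 value is turned. The main comparisons are given under both readings. Across 18868 probes, the DLD-1 arrays had r = −0.45 and the HT-29 arrays 0.00 in file order, against 0.51 for the array 1 pair and −0.20 for the array 2 pair of the lines. Over the members tested these were −0.49, 0.00, 0.46 and −0.02, and the arrays share probes and print pattern, so these are descriptions. In average signal, the HT-29 arrays (r = 0.60) were no more alike than HT-29 array 1 was to the DLD-1 arrays (0.69 and 0.71). Precision throughout is limited by there being only 4 arrays.

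Promoters of 4 members are shown because between them they hold the NRF1 letters and the ETS letters searched, many CpG pairs (the sites that the drug's target methylates), and almost none of any of these. Each run is the 250 bases before the RefSeq gene start in build GRCh38.p14, 5′ to 3′ on the gene's strand, and capitals mark matches on either strand to the NRF1 consensus, searched in full, and to CCGGAAG, the ETS letters.
NDUFA12 (chr12:95003698-95003947, minus strand): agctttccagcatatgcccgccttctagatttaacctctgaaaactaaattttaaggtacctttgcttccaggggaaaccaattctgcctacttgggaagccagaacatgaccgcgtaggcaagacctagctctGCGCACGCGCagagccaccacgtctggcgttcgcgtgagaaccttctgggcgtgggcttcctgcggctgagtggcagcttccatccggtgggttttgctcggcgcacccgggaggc
UQCR11 (chr19:1605463-1605712, minus strand): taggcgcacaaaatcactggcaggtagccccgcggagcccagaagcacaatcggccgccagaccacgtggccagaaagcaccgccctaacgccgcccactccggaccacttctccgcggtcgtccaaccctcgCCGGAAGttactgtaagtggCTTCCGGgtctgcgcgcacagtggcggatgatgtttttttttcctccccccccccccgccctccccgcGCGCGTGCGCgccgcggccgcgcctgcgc
SDHAF2 (chr11:61429874-61430123, plus strand): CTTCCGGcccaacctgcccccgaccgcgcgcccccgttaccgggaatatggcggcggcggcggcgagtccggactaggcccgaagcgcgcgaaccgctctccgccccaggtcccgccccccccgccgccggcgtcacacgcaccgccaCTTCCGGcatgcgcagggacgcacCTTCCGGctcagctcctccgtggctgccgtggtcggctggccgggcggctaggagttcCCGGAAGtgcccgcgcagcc
COX6A2 (chr16:31428361-31428610, minus strand): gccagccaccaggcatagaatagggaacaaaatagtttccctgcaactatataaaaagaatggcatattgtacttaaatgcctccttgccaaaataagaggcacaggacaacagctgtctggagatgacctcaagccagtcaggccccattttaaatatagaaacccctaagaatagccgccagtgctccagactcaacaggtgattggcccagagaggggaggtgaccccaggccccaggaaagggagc
NDUFA12, an accessory subunit of complex I, has the NRF1 letters at −116 to −107. UQCR11, the smallest subunit of complex III, has them at −29 to −20 and the ETS letters at −117 to −111 and −97 to −91. SDHAF2, which puts the flavin on SDHA, has the ETS letters at 4 places, the nearest at −20 to −14, and 38 CpG pairs in this stretch. COX6A2, the heart and muscle form of a complex IV subunit, has no match and 1 CpG pair in it.

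The promoter table held a window of 300 bases (250 before and 50 after the start) for 71 of the 84 genes, with 88 windows because some genes have several starts. NRF1 letters stood in 10 windows (11.4%, against 2.77% of the 35116 windows of the table), ETS letters in 25 (28.4% against 10.3%) and AAGATGG, the YY1 letters, in 17 (19.3% against 5.84%). Any of the 3 was present in 42 member windows (47.7% against 17.4%), and 3 windows held both NRF1 and ETS letters. By group, ETS letters were in 3 of 6 windows of complex III, 4 of 10 of complex IV, 6 of 16 of complex V and 5 of 36 of complex I, while YY1 letters were in 8 of the complex I windows. Member windows had a median of 22 CpG pairs against 14 in all windows, and 79.5% against 48.9% had 15 or more. The NRF1 letters were narrowed from a looser form after its matches had been seen, and the part of CpG content in these shares was not tested. A match is a run of letters and says nothing of binding, and the arrays did not measure methylation.

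At least 1 channel was above background on all 4 arrays for 81 of the 90 probes (90%, against 63.8% of 29591 probes), and these 81, for 79 genes, entered the test. Both channels were above it on all 4 arrays for 79 member probes (87.8%, against 47.9%). The 9 probes that did not enter were those of NDUFA10, NDUFB7, SDHA, COX11 and NDUFAF2, and 1 of the several probes of NDUFA3, NDUFA5, NDUFA9 and NDUFV1. Signal above background was no proof of expression here. Of 12 probes for colorectal epithelial markers, 9 were above background in all 8 channels (CDX1 in 2 and LGALS4 in 5), but so were 4 of 7 for fibroblast markers and 3 of 5 for blood markers, with LUM and CD79A at 0. The part of such signal in the results below was not tested.

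Under the working reading no oxidative phosphorylation gene was called up or down after 5-aza-2'-deoxycytidine on the mean of both lines. Of 81 probes, 0 rose and 0 fell at an adjusted p of 0.05 (limma on the 2 line means, two-sided, Benjamini-Hochberg over 18868 probes), and 0.143% of all probes were called up and 0.0318% down. The lowest adjusted p of a member was 0.48. At an unadjusted p under 0.05, 0 members were up and 2 were down (2.47%, NDUFA7 and NDUFA13), against 3.44% and 1.38% of all probes. Mean log2 ratios ran from −0.64 to 0.35 with a median of −0.06 (all probes 0.01), and 33 of 81 were positive. The standard error, which limma took as 1 value for all probes, was 0.22, and an exact sign-flip test of 2 line means cannot go below p = 0.5.

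In the labels' channel order 2 members were called up, ATP5MC3 and NDUFC2, and 0 down, against 0.668% of all probes up and 0.0477% down. ATP5MC3 encodes a form of subunit c, which makes the membrane ring of complex V. Its log2 ratios were 0.46, −0.80, 1.07 and −1.30. Both array 1 values were above 0 and both array 2 values below it, so its mean was −0.14 under the working reading (adjusted p = 0.963 by limma) and 0.91 in the labels' order (adjusted p = 0.0346, SE 0.25). NDUFC2, an accessory subunit in the membrane arm of complex I, had 0.62, −0.58, 0.82 and −1.56. It showed the same order of signs, with means of −0.17 (adjusted p = 0.963 by limma) and 0.89 (adjusted p = 0.0402). Over the 8 settings tried in the labels' order, ATP5MC3 had means from 0.77 to 0.99 and passed in 4, and NDUFC2 had means from 0.71 to 1.08 and passed in 2. Leaving out 1 array in that order ended the call of NDUFC2 whichever array it was, and that of ATP5MC3 for each array but HT-29 array 2. Without HT-29 array 2, 3 members were up (ATP5MC3, NDUFA2 and SDHAF2, 3.57% of 84, against 3.63% of all probes), which is the background share. Without DLD-1 array 1, 1 was down (1.22% of 82, against 0.0966%), an NDUFA5 probe outside the 81, and 0 were called when the array left out was the second of DLD-1 (0.683% of all probes up) or the first of HT-29 (0.00504% up). At an unadjusted p under 0.05, 14 members were up in that order (17.3%, against 8.36% of all probes) and 0 down.

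With values in file channel order, the members as a set followed the array pair more than the line. On the array 1 hybridisations their median log2 ratio was 0.05 for DLD-1 and 0.35 for HT-29, where 56.8% and 81.5% of members were positive, and −0.38 and −0.34 on the dye-exchanged arrays, where 25.9% and 32.1% were. The medians of all probes on the same 4 arrays lay between −0.04 and 0.05. A member median of −0.06 under the working reading thus became 0.23 in the labels' order, with 67 of 81 positive (82.7%), while the median of all probes stayed at 0.01. With the labels' order 19 members were positive on all 4 arrays (23.5%, against 8.65% of all probes) and 1, NDUFB5, was negative (1.23%, against 7.28%). Under the working reading 1 was positive and 1 negative on all 4 (1.23% each, against 4.53% and 3.31%). Position in the 48 printed blocks accounted for 23.2% to 49.7% of the variance of the log2 ratios of an array, and the part of dye and position in this pattern was not tested. With block medians set to 0 on each array, the member median was −0.02 under the working reading and 0.27 in the labels' order, and 0 members were called under either. ATP5MC3 then had a mean of 0.77 (adjusted p = 0.148 by limma) and NDUFC2 of 0.83 (adjusted p = 0.0582) in the labels' order.

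**Figure D1:**
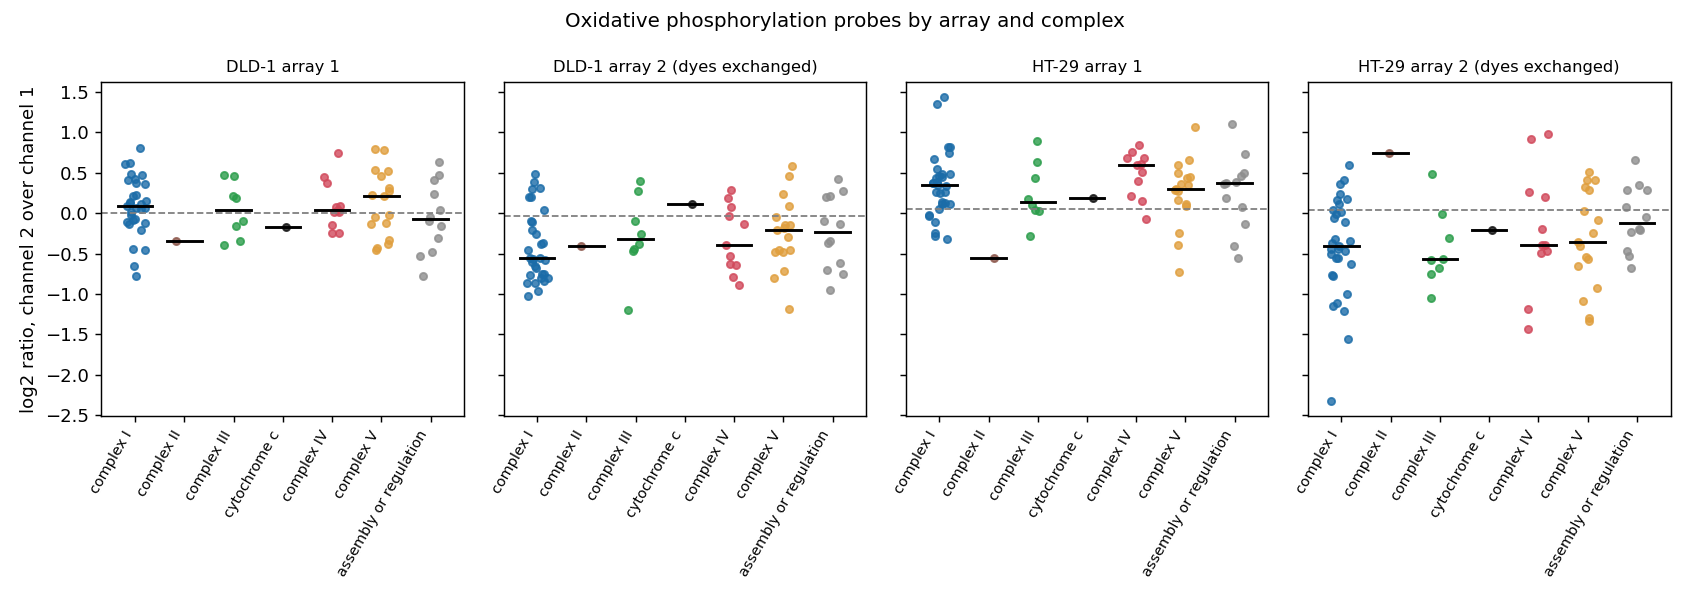
Log2 ratio of channel 2 over channel 1 (y axis) of the 81 probes tested, by complex (x axis), on each of the 4 arrays. Each point is a probe, black bars are group medians and the dashed line is the median of all 18868 probes; complex I has medians of 0.08 and 0.35 on the array 1 panels and −0.56 and −0.41 on the dye-exchanged panels.

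Complex I had 31 probes in the test and 0 passed under the working reading, with a median mean log2 ratio of −0.07, against 0.31 and 1 call (NDUFC2) in the labels' order. Among its members NDUFA12 had the highest mean and NDUFA7, an accessory subunit of the NADH-binding arm, the lowest. NDUFA7 had log2 ratios of 0.07, −0.57, 0.26 and −2.32. The last value stood far below the others, and the channel 2 signal of HT-29 was above background on 1 of 2 arrays. Its mean was −0.64 (adjusted p = 0.48 by limma) under the working reading and 0.80 (adjusted p = 0.0975) in the labels' order. Without HT-29 array 1 it passed the limma test with a mean of −1.28 (adjusted p = 0.0227). That call rests on HT-29 array 2 alone for its line, and over the other settings under this reading the adjusted p ran up to 1.

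The 2 probes of NDUFA12 differed. The first had 0.36, −0.37, 1.43 and −0.02 and the second −0.11, 0.19, 0.24 and −0.56, so the means were 0.35 and −0.06 under the working reading (adjusted p = 0.963 and 0.984 by limma) and 0.54 and 0.12 in the labels' order. NDUFS6, a zinc-binding subunit of the NADH arm, was negative on all 4 arrays, the single probe of the 81 tested to be so, with −0.77, −0.10, −0.32 and −0.44. Its mean of −0.41 did not pass (adjusted p = 0.963 by limma), and it was −0.14 in the labels' order. The core subunits tested, NDUFS1, NDUFS3, NDUFS8, NDUFV1 and NDUFV2, had means between −0.42 and 0.19, and between −0.01 and 0.55 in the labels' order, where NDUFS8 turned from −0.42 to 0.55. None of these passed under either reading.

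**Figure D2:**
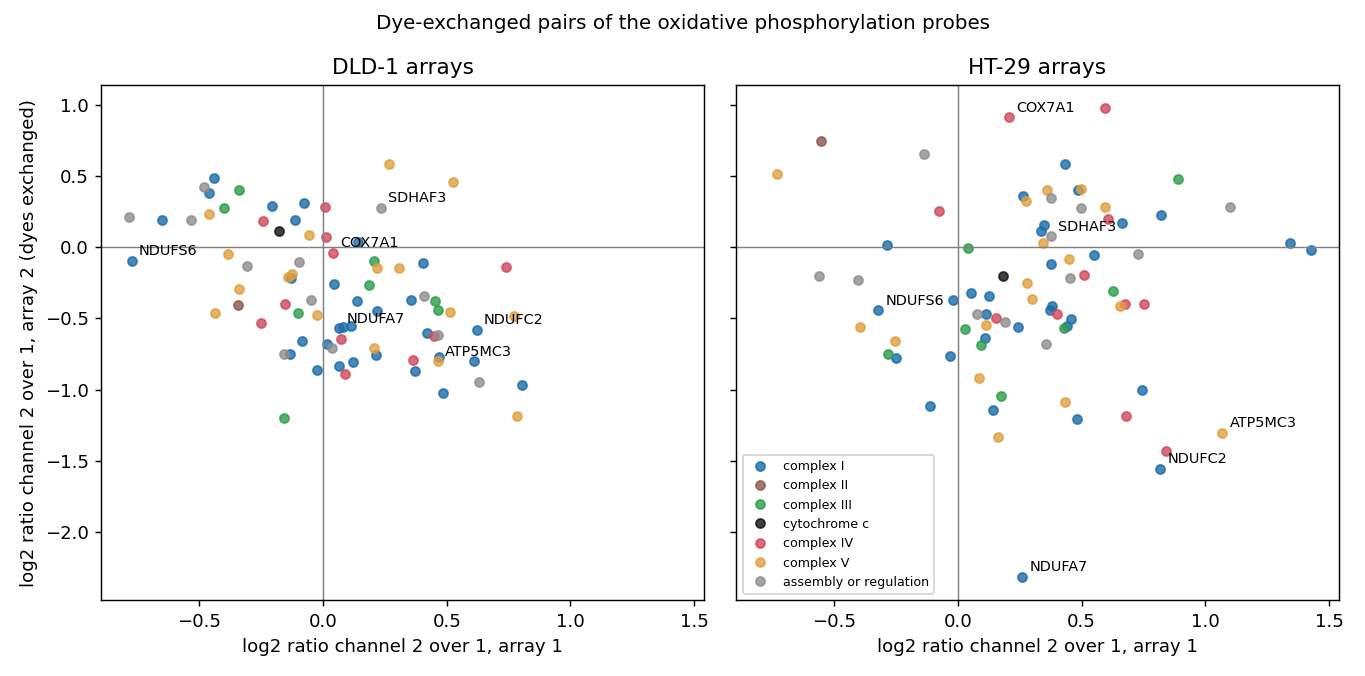
Log2 ratio of channel 2 over channel 1 on array 1 (x axis) against the dye-exchanged array 2 (y axis) for the 81 probes tested, DLD-1 at left and HT-29 at right, coloured by complex. More points lie at the lower right (positive on array 1 and negative on array 2) than in any other corner, with NDUFC2 and ATP5MC3 far out in HT-29 and NDUFA7 lowest at −2.32.

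Complex II was represented by SDHC, its membrane anchor, and SDHA, its flavoprotein. SDHC had −0.34, −0.41, −0.55 and 0.75, a mean of −0.14 under the working reading (adjusted p = 0.963 by limma) and of −0.31 in the labels' order. The values of 3 arrays were negative and that of HT-29 array 2 was not. SDHA had 0.39, −0.27, −0.31 and −0.01 and was not tested, because neither channel was above background on 1 of the HT-29 arrays.

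All 8 complex III probes entered the test and 0 passed under either reading. Their median was −0.12 with 2 of 8 positive under the working reading, and 0.25 with 8 of 8 positive in the labels' order. UQCR11 had the lowest mean, with values of −0.15, −1.20, 0.04 and −0.01. DLD-1 array 2 alone lay far from 0, and the mean was −0.33 (adjusted p = 0.963 by limma), or 0.27 in the labels' order. UQCRB, which helps to form the ubiquinone site, had the highest mean, with −0.10, −0.46, 0.89 and 0.48. It was negative on both DLD-1 arrays and positive on both HT-29 arrays, and its mean was 0.20 (adjusted p = 0.963 by limma), or 0.19 in the labels' order. CYCS, cytochrome c itself, had −0.18, 0.12, 0.18 and −0.21, with means of −0.02 and 0.02 under the 2 readings.

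Complex IV had 11 probes in the test and 0 passed under either reading, with medians of 0.06 and 0.20. COX4I1, a regulatory subunit present in most tissues, had 0.09, −0.89, 0.84 and −1.43. It was low on both dye-exchanged arrays, and had the lowest mean of the complex under the working reading (−0.35, adjusted p = 0.963 by limma) and the highest in the labels' order (0.81, adjusted p = 0.0907). Over the 8 settings tried in the labels' order COX4I1 passed in 1, which counted the 4 arrays as 4 samples (adjusted p = 0.046 by limma). That setting was added after seeing the data, and the labels do not give the arrays of a line as separate samples. COX7A1 and COX6A2, the heart and muscle forms present in the set, did not pass either. COX7A1 had 0.04, −0.04, 0.21 and 0.91, with a mean of 0.28, the highest of complex IV, that became −0.16 in the labels' order (adjusted p = 0.963 and 0.871 by limma). COX6A2 had −0.15, −0.40, 0.75 and −0.40, and means of −0.05 and 0.35. Both probes were above background in all 8 channels, so neither line showed a change from background to signal.

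Complex V had 17 probes in the test, with 0 called under the working reading (median −0.01) and 1, ATP5MC3, in the labels' order (median 0.19). ATP5MC1 and ATP5MC2, the other genes for subunit c, had means of −0.32 and −0.42 under the working reading and 0.37 and 0.49 in the labels' order, and neither passed. ATP5MC2 had −0.02, −0.48, 0.16 and −1.34, the lowest mean of the complex (adjusted p = 0.963 by limma). ATP5MJ, a small subunit of the membrane part, had the highest mean, with 0.77, −0.48, 0.60 and 0.29 (mean 0.29, adjusted p = 0.963 by limma, and 0.39 in the labels' order). Its HT-29 signal in channel 1 was above background on 1 of 2 arrays. ATP5F1B, the catalytic beta subunit, had 0.51, −0.45, 0.34 and 0.03, and ATP5PB of the peripheral stalk had 0.31, −0.15, 0.36 and 0.41. Both were positive on 3 of 4 arrays, with means of 0.11 and 0.23, and of 0.32 and 0.10 in the labels' order. The 2 probes of ATP5PO, which joins the stalk to the catalytic head, differed in sign, with means of 0.02 and −0.16, and of 0.22 and −0.40 in the labels' order.

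Of the 12 assembly and regulatory genes tested, 0 passed under either reading, with medians of −0.02 and 0.15. SDHAF3, which acts in the maturation of the iron-sulfur subunit of complex II, was positive on all 4 arrays, with 0.23, 0.28, 0.38 and 0.08. It was the single probe of the 81 tested to be so. Its mean of 0.24 did not pass (adjusted p = 0.963 by limma), and it was 0.06 in the labels' order. SDHAF2 had 0.63, −0.95, 1.10 and 0.28, with DLD-1 array 2 alone below 0. Its mean was 0.27, and 0.60 in the labels' order (adjusted p = 0.963 and 0.32 by limma). COX16, which acts in copper delivery to complex IV, had 0.47, −0.62, 0.73 and −0.05, and NDUFAF5, which modifies a complex I subunit during assembly, had −0.31, −0.13, 0.19 and −0.53. COX16 was positive on both array 1 values, with means of 0.13 and 0.47 under the 2 readings, and NDUFAF5 had means of −0.19 and 0.14. ATP5IF1, the inhibitor that stops complex V from running backwards, had −0.16, −0.75, 0.38 and 0.34, with means of −0.05 and 0.16.

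**Figure D3:**
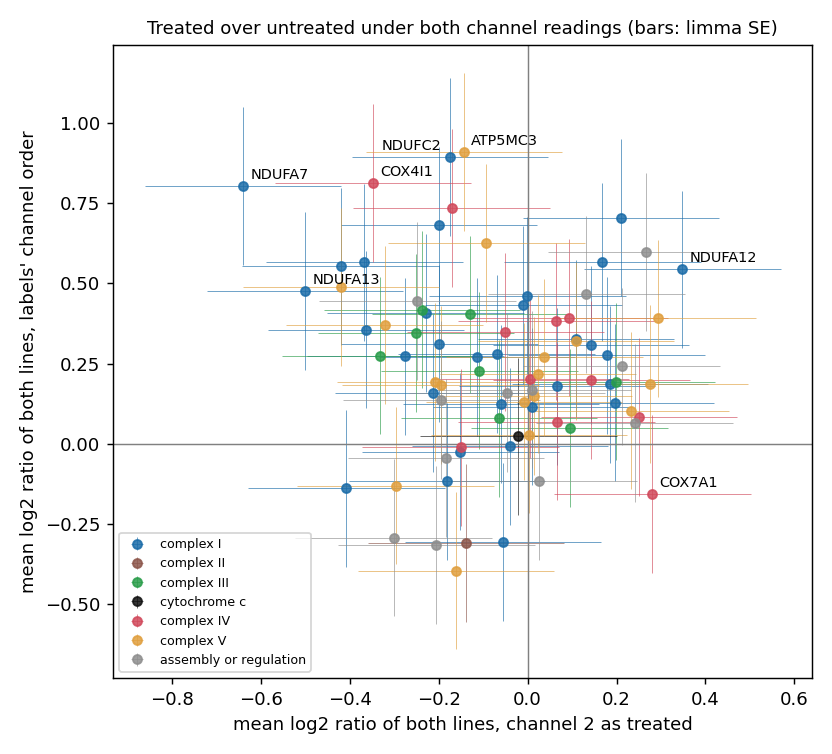
Mean log2 ratio of treated over untreated over both lines with channel 2 as treated (x axis) and in the labels' channel order (y axis), for the 81 probes tested. Bars are the limma standard errors of 0.22 and 0.25; 33 points lie right of 0 and 67 lie above 0, and ATP5MC3 at 0.91 and NDUFC2 at 0.89 are the members that passed in the labels' order.

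Within a line there is no test, and a probe counted where both arrays gave a ratio of at least 2-fold with 1 sign. In DLD-1, 0 of 88 member probes measured were counted under either reading, against 0.113% of probes up and 0.00944% down (0.368% and 0.0142% in the labels' order). In HT-29, 0 of 82 were counted under the working reading, against 0.115% up and 0.0132% down, and 1 was up in the labels' order, ATP5MC3, against 0.305% up and 0.00442% down. Under the working reading the member median of the line means was −0.12 for DLD-1 and −0.03 for HT-29, and it was 0.23 and 0.29 in the labels' order. In HT-29 the 2 arrays differed when each was taken alone. On array 1, 4 of 86 members were at least 2-fold up (ATP5MC3, NDUFA12, NDUFA2 and SDHAF2) and 0 down, or 4.65% up against 4.39% of all probes up and 1.07% down. On the dye-exchanged array, read with channel 2 as treated, 0 of 86 were up and 11 down. That is 12.8% down, against 2.18% of all probes down and 1.96% up. Among the 11 were ATP5MC1, ATP5MC2, ATP5MC3, COX4I1, COX7A2, CYC1 and NDUFC2. In the labels' order the signs of this array turn, so the same 11 count as up. Under the working reading 1 of the 81 members tested, NDUFS3, was positive on both DLD-1 arrays and negative on both HT-29 arrays (2.75% of all probes were). The reverse was shown by 3 (4.66% of all probes). The labels' order gave 0 members with the first pattern and 10 with the reverse (5.2% and 6.75% of all probes).

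The untreated signals of HT-29 and DLD-1 were compared to ask which members differ between the lines without the drug, for the same probe and dye on each pair of arrays, with no test since each line is 1 sample. The 2 pairs gave nearly unrelated differences (r = 0.06 over all probes and −0.04 over members), so single-pair differences carry little weight. Of 86 member probes measured, 2 were at least 2-fold higher in HT-29 on both pairs (2.33%, against 4.75% of 23696 probes) and 6 at least 2-fold lower (6.98%, against 4.93%). Those shares are near the background. Read in the labels' order, 2 were higher and 2 lower of 84 (2.38% each, against 3.92% and 3.41%), and 4 members, NDUFAF5, SDHAF2, ATP5MC3 and COX11, were counted under both readings. The median difference over members was −0.36 on the log2 scale (all probes −0.09), and −0.31 (all probes −0.09) in the labels' order. The pairs differed in this, with −0.51 (all probes −0.03) on the array 1 pair. On the array 2 pair the member median was −0.18 (all probes −0.12), and −0.05 (all probes −0.12) in the labels' order.

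NDUFAF5 and SDHAF2 had the largest mean differences of these. For NDUFAF5 the untreated log2 signal was 10.87 in DLD-1 and 12.60 in HT-29 on the array 1 pair, and 11.26 and 13.98 on the array 2 pair, a mean difference of 2.22 ± 0.70 (SD, 2 array pairs) or 4.66-fold. Both pairs put HT-29 above DLD-1, but the count required 1 sign on both pairs. Their accord, and the SD over pairs so picked, are thus no separate support. In the labels' order the array 2 difference of NDUFAF5 was 2.32 and the mean 2.02. SDHAF2 had 10.96 and 13.64 on the first pair and 12.13 and 13.32 on the other, a mean difference of 1.93 ± 1.05 or 3.82-fold, with 2.42 on the array 2 pair and a mean of 2.55 in the labels' order.

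ATP5MC3 had 12.46 in DLD-1 and 11.21 in HT-29 on the array 1 pair and 13.45 and 12.20 on the array 2 pair, a 2.38-fold higher signal in DLD-1 (difference −1.25 on both pairs), with −1.75 on the array 2 pair in the labels' order. COX11, which delivers copper to the oxygen-reducing site of complex IV, had 10.10 and 8.53, then 9.95 and 8.75. Its untreated HT-29 signal was not well above background on either array under the working reading, so no fold is given.

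NDUFA12 by its first probe (2.45-fold), ATP5F1B (2.44-fold), COX16 (2.44-fold) and ATP5PB (2.09-fold) were higher in untreated DLD-1 under the working reading. In the labels' order their array 2 differences were −0.90, −0.85, −0.83 and −0.49, short of 2-fold. The second NDUFA12 probe had −1.27 on the array 1 pair and 0.13 on the array 2 pair, so the 2 probes do not give the same picture. Differences as large stood on 1 pair alone for other members, such as SDHA with −4.11 on the array 1 pair and 0.73 on the array 2 pair, where 1 HT-29 array had no signal above background.

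**Figure D4:**
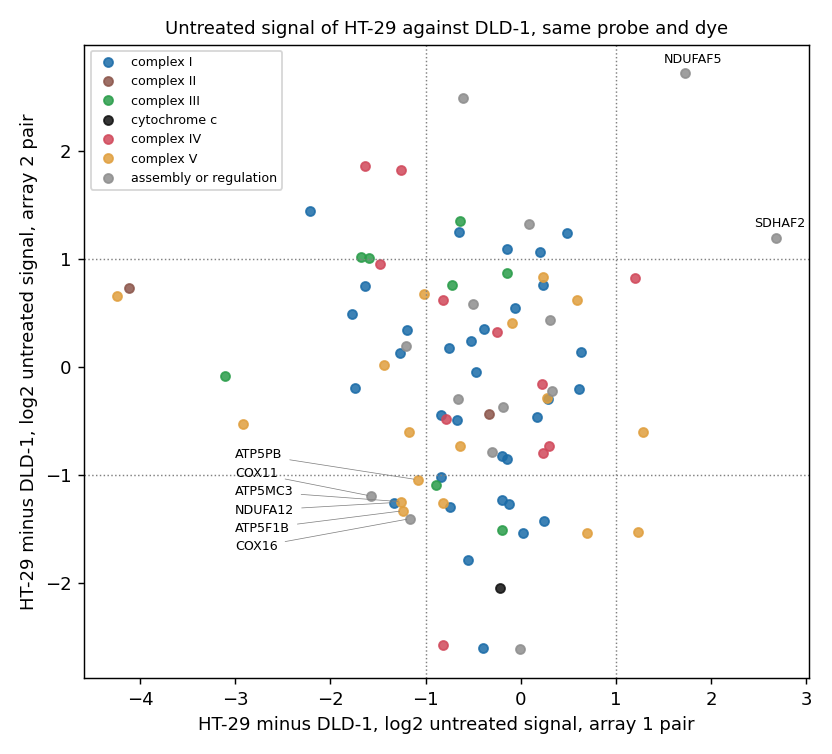
Difference of untreated log2 signal, HT-29 minus DLD-1, on the array 1 pair (x axis) and the array 2 pair (y axis) for 86 member probes, with channel 2 as treated. Dotted lines mark a 2-fold difference; NDUFAF5 and SDHAF2 lie above it on both pairs, 6 labelled members lie below it on both pairs, and the rest form no diagonal (r = −0.04).

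Genes around the pathway gave few calls. Of 14 probes tested for mitochondrial transcription and replication, 0 passed under either reading, with medians of 0.07 and −0.07. MTERF1, a mitochondrial termination factor, had the highest mean (0.78, adjusted p = 0.147 by limma), and it was −0.06 in the labels' order. GABPA, the DNA-binding subunit of GABP, had the lowest (−0.26, and −0.11 in the labels' order). Of 10 probes for assembly factors outside the symbol rule, 1 passed under the working reading, OXA1L, the insertase that places proteins in the inner membrane. OXA1L had 0.51, 2.94, 0.82 and 0.35. The mean was 1.16 (adjusted p = 0.000208 by limma) and −0.49 in the labels' order (adjusted p = 0.444). The value on DLD-1 array 2 stood far above the others. By limma, the call was kept without DLD-1 array 1 (mean 1.76, adjusted p = 0.00738) and lost without DLD-1 array 2 (0.55, adjusted p = 0.135), HT-29 array 1 (1.04, adjusted p = 0.248) or HT-29 array 2 (1.27, adjusted p = 0.803). The list's median was −0.12, and −0.01 in the labels' order.

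Tricarboxylic acid cycle genes had 15 probes tested and 0 called under either reading, with medians of −0.13 and 0.04. An IDH2 probe, for mitochondrial isocitrate dehydrogenase, had the highest mean (0.34) and IDH3B the lowest (−0.41), and in the labels' order they were −0.20 and −0.07. Glycolysis had 26 probes tested and 0 called under either reading, with medians of 0.05 and 0.18. ALDOA had the highest mean (0.32, and 0.71 in the labels' order) and LDHB the lowest (−0.39, and 0.17), and 9 of the 26 probes are for GAPDH.

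Log2 ratios were also set out by the NRF1 letters in a promoter window. Of the 81 probes tested, 12 for 10 genes had a match, with a median mean of −0.08 (−0.33 to 0.35), 57 had none, with −0.05 (−0.64 to 0.29), and the other 12 fell in neither group because no window was matched. In the labels' order the medians were 0.25 and 0.24. These are descriptions, and the difference was not tested.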

How the data were processed

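Gene expression was measured on 2-colour oligonucleotide arrays, 2 for each of DLD-1 and HT-29. The deposited scanner files give, per spot and channel, a linear intensity with its local background and the SD of that background. The authors also deposited the log2 ratio of the background-subtracted channels, with the median of valid spots at 0 on each array, per the file headers and values. Labelling used amino allyl aRNA and Cy3 or Cy5, per the labels. No source used here names the scanner or its software. Numbers of probes above background in both channels were 19525, 22810, 20017 and 22946 in array order.

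Background correction used normexp with an offset of 50 in limma 3.58.1 under R 4.3.3, and 1 loess curve was fitted per array, with control and bad spots at weight 0. A channel of a spot was above background where it stood over 2 background SD above its local background. Untreated signals were scaled between arrays by Aquantile. The 2 arrays of a line were averaged, and limma tested the 2 line means against 0. A channel was counted as treated as the report says, under both readings. The platform table names 14200 probes with 1 symbol, 447 with several and 14993 with none. Each array compares treated with untreated RNA directly. The limma step was tested on simulated data, with each planted change of the same size and sign on all arrays. The outcome is not given here, so it lends no weight to the calls.

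Members and lists were chosen with earlier results of these data known. Members named with values were those called in any comparison, those with 1 sign on all 4 arrays, the highest and lowest mean of each complex, all of complex II, cytochrome c and tissue-restricted forms, and genes whose probes differ in sign. The NRF1 letters were narrowed from a looser form after its matches had been seen. Alternatives covered the channel reading, normalization, background, the filter on dim probes, the replicate unit and leaving out each array. Several were added after seeing the data, all of them pairing the labels' order with another setting.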

Additional observations from a re-analysis of the deposited data

Results flagged for a closer look

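Some members moved one way on both arrays of DLD-1 and the other way on both arrays of HT-29 under the working reading. Of the 81 members tested, that held for 1 with DLD-1 above 0 and HT-29 below it (2.75% of all probes). It held for 3 the other way round (4.66% of all probes). Neither member share is above that of all probes, so under this reading the pattern was no more common in the members than on the array. NDUFS3, a core subunit of complex I, had 0.14 and 0.04 in DLD-1 and −0.25 and −0.78 in HT-29, an HT-29 minus DLD-1 difference of line means of −0.60. UQCRB of complex III had −0.10 and −0.46 against 0.89 and 0.48, a difference of 0.97. ATP5PD, of the peripheral stalk of complex V, had −0.44 and −0.46 against 0.50 and 0.41, a difference of 0.90. The complex V inhibitor ATP5IF1 had −0.16 and −0.75 against 0.38 and 0.34, a difference of 0.81. These differences between lines were not tested, and since array 2 signs turn in the labels' order, none of the 4 has this pattern there.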

How the results depend on the processing

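The channel reading and the arrays used both moved the results. In the labels' channel order, against the working reading, probes called by limma over both lines went from 33 to 135, members called from 0 to 2, the member median from −0.06 to 0.23, probes counted in DLD-1 from 26 to 81 and in HT-29 from 29 to 70, members counted in HT-29 from 0 to 1, and members counted between the lines from 8 to 4. ATP5MC3 and NDUFC2 then had means of 0.91 and 0.89, the opposite sign to the working reading. Under the working reading, block medians at 0 gave 4 probes over both lines and 16 in HT-29, no filter on dim probes gave 56 over both lines, 71 in DLD-1 and 56 in HT-29, both channels above background gave 9 and 17 in DLD-1 and HT-29, averaging the probes of a gene gave 20, counting the 4 arrays as samples gave 18, and the authors' deposited log2 ratios gave a member median of −0.17. Alternatives that were chosen after seeing the data pair the labels' order with another setting. The 4 arrays as samples gave 204 of 18868 probes and 3 of 81 members, with a median of 0.23. The members were ATP5MC3 with 0.91, NDUFC2 with 0.89 and COX4I1 with 0.81. The labels do not give the arrays of a line as separate samples. Block medians at 0 gave 56 probes and a median of 0.27. The deposited ratios gave 202 probes, 1 member (ATP5MC3, 0.97) and a median of 0.39. The cause of these moves was not tested. Leaving out each array in turn under the working reading gave between 1 and 874 probes and between 0 and 1 members over both lines, with medians from −0.17 to 0.11. In the labels' order it gave between 1 and 813 probes and between 0 and 3 members, with medians from 0.19 to 0.26, and ATP5MC3 had 0.85 without HT-29 array 2 there. Over both readings the leave-one-out means of ATP5MC3 ran from −0.74 (working reading, without HT-29 array 1) to 0.99 (labels' order, without DLD-1 array 1). With 1 array of a line left, counts were 978 to 1628 in DLD-1 (members 0 to 6 of 89) and 1018 to 1367 in HT-29 (members 4 to 11 of 86). On DLD-1 array 2 alone, 1.12% of members were up and 5.62% down, against 2.18% and 4.13% of all probes. On DLD-1 array 1 alone 0 members were counted, against 2.83% of all probes up and 1.6% down. The HT-29 shares are given above for each array. Between the lines, 1 pair alone gave 9817 to 12034 probes and 30 to 37 members. Shares are not given for these, so they are no result about the members. No paired test of the treatment across the lines was run, because the labels give the arrays no replicate numbers to pair. Treated and untreated RNA are already paired within each log2 ratio, and the untreated signals of the lines were paired by dye orientation alone.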
